A study of Mus musculus with 26 samples.

Results

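The genes described here are 6 receptors of the tumour necrosis factor (TNF) receptor family that costimulate lymphocytes: Tnfrsf4 (OX40), Tnfrsf9 (4-1BB), Tnfrsf18 (GITR), Tnfrsf1b (TNFR2), Tnfrsf25 (DR3) and Cd27. They were taken by gene symbol, without a cutoff on their measured values but with earlier results of these data known. All 6 of 6 were found among the 23168 symbols read in all 26 libraries. The libraries hold total RNA of sorted thymocytes from wild-type C57BL/6 mice 6 to 8 weeks old, and every group shares that background. DN1eP (4 libraries) are thymic precursors freshly sorted as lineage-negative, CD44+, CD25-, CD24low, CD5+, CD27+, Ly108-, CXCR3+ cells that lack the Vα14Jα18 T cell receptor on their surface. DN1eP-NKT (4 libraries) are receptor-positive NKT cells obtained from DN1eP after 10 days on OP9 stromal cells expressing the Notch ligand Dll-1, with mouse IL-2 and IL-7 at 5 ng/ml each. NKT-1 (5 libraries), NKT-2 (7) and NKT-3 (6) are thymic NKT cells sorted with a CD1d dimer loaded with the glycolipid alphaGalCer. Stage 1 is CD44- NK1.1-, stage 2 is CD44+ NK1.1- and stage 3 is CD44+ NK1.1+. The sources used here do not say whether the libraries of a group come from separate animals or cultures, so every p-value measures the spread between these libraries, which may be technical. The design asks which of the receptors are higher after culture with the cytokines and which change with the thymic stages. No group was cultured without the cytokines. IL-2, IL-7, the stromal cells with Dll-1, the days in culture and the sort for receptor-positive cells therefore cannot be told apart.

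NKT cells are T lymphocytes that recognise glycolipids presented by CD1d, and they leave the thymus already able to release cytokines quickly. The receptors of this family are membrane proteins that bind trimeric ligands of the TNF family on neighbouring cells. Their cytoplasmic tails recruit TRAF adaptor proteins and so switch on NF-kB, which favours survival, division and cytokine release. Tnfrsf25 differs from the other five in carrying a death domain, through which it binds the adaptor TRADD. Cd27 is present on resting T cells, whereas Tnfrsf4 and Tnfrsf9 are textbook receptors of recently activated T cells, and Tnfrsf18 and Tnfrsf1b are abundant on regulatory T cells.

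In the mouse build mm9 used by the deposited files, 5 of the 6 genes lie on chromosome 4 within 10.6 Mb. Tnfrsf4 (155387804 to 155390698) and Tnfrsf18 (155400451 to 155403000) are separated by 9752 bp, with 1 other gene between them. Tnfrsf9 occupies 150294264 to 150320211, Tnfrsf25 151490452 to 151494220 and Tnfrsf1b 144802271 to 144836773 on the same chromosome. Cd27 lies on chromosome 6 (125182640 to 125187045) and overlaps E130112N10Rik. No source used here gives the strand setting of the counting, so reads of Cd27 and of E130112N10Rik cannot be told apart.

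The promoter sequences of 3 receptors are printed because Tnfrsf4 and Tnfrsf9 were the members that rose in the cultured cells and Tnfrsf18 was the member with the largest rise at stage 3. Each is the stretch of 250 bases before a gene start in RefSeq (GRCm38.p6, all + strand), 5′ to 3′, with motif matches in capitals. RefSeq windows were found for 6 of the 6 members, 8 windows in all, since Tnfrsf9 and Tnfrsf25 each have a second start. Of the Tnfrsf9 windows only the second, with 4 matches, is printed, and the first holds 0, so the capitals do not stand for both starts. The windows were not tied to the gene models behind the expression values.
Tnfrsf9, second start, chr4:150927749-150927998: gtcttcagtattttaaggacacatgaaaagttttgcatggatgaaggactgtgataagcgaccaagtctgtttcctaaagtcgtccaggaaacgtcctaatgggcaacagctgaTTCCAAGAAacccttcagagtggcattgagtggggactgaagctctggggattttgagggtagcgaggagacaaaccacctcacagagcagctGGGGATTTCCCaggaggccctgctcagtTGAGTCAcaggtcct
Tnfrsf4, chr4:156013445-156013694: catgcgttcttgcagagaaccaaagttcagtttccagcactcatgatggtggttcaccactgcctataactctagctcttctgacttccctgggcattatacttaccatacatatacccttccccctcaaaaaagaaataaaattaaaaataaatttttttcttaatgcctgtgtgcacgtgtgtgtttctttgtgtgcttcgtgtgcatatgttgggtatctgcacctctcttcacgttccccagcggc
Tnfrsf18, chr4:156026072-156026321: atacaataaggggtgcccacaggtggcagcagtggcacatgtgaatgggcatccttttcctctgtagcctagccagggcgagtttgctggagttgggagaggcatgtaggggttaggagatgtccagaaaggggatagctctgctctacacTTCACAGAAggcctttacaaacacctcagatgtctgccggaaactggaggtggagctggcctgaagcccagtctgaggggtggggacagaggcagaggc
The motifs searched on both strands were a STAT site (TTCNNNGAA), an AP-1 site (TGANTCA), a T-box half-site (AGGTGTGA) and the NF-kB site by its name. In the second Tnfrsf9 window, the capitals mark TTCCAAGAA for STAT at 136 to 128 bases before the start and TGAGTCA for AP-1 at 15 to 9 bases. Between them lie 2 overlapping NF-kB matches, GGGGATTTCC from 43 to 34 and GGGATTTCCC from 42 to 33 bases before the start. The Tnfrsf18 window holds TTCACAGAA for STAT at 99 to 91 bases, and the Tnfrsf4 window holds none of the 4 motifs. Of the windows not printed, Tnfrsf1b holds 1 STAT match, the second Tnfrsf25 window 1 NF-kB and 1 STAT match, and the first windows of Tnfrsf9 and Tnfrsf25 and the Cd27 window none. Among the 32851 RefSeq windows of this length, 7.25% hold the NF-kB, 7.02% the STAT, 6.75% the AP-1 and 1.12% the T-box letters. These matches describe the letters in the windows and were not tested for binding. The expression values are per gene and do not separate the starts.

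Values are FPKM, fragments per kilobase of transcript scaled to library size, and differences between groups are on the log2(FPKM + 1) scale, which understates changes of genes near 1 FPKM. The libraries fall into 2 sets of 13 by the median FPKM of their expressed genes, 12.97 to 13.85 in the higher-median set and 7.58 to 9.81 in the lower-median set. All DN1eP libraries are in the lower set and all DN1eP-NKT libraries in the higher set, while NKT-1 has 2 higher and 3 lower, NKT-2 has 4 and 3, and NKT-3 has 3 and 3. The labels name 2 library kits without saying which library had which. Library set entered the main test as a term, and its effect passed the test for 8502 of 11663 genes (72.9%). Among the receptors the higher set gave more Tnfrsf1b (log2 difference 2.12 ± 0.12 (SE), adjusted p = 7.87e-15) and less Tnfrsf18 (−1.02 ± 0.14, adjusted p = 3.46e-07). For the other 4 the set effect did not pass, with values between −0.25 and 0.10. The term is a single value for all groups, and the set differences varied with stage. In NKT-1 the sets did not overlap for Tnfrsf9 (−0.56), Cd27 (−0.69) and Tnfrsf25 (0.74). In NKT-2 the sets overlapped and these differences were 0.38, 0.12 and −0.62. For Tnfrsf4 the sets overlapped in every stage. Depth, read from the deposited confidence intervals, was 1.17 to 30.0 M fragments per library, and library 1 of DN1eP (20.9 M) and of DN1eP-NKT (16.6 M) was far deeper than libraries 2 to 4 of these groups (1.17 to 2.86 M). The sort genes followed the gates: from stage 2 to stage 3, Klrb1c, which encodes NK1.1, rose by 4.4 ± 0.31, and from stage 1 to stage 2 Cd44 rose by 3.22 ± 0.22. The summed level of 6 NKT and T cell genes was 1062 to 1617 FPKM in DN1eP-NKT, 1536 to 4961 in the thymic stages and 3709 to 5346 in DN1eP, which were sorted as negative for the NKT receptor. B cell markers (8 genes) summed to 142 FPKM in NKT-2 library 6 and 43.7 in NKT-3 library 5, whose erythroid markers (6 genes) also reached 326 FPKM, so values without this pair are given below where they change a call. From DN1eP to DN1eP-NKT, where 15.1% of all genes rose and 17% fell (36.2% and 16.4% without the set term), 1 of 4 tested myeloid and dendritic genes fell (Mpo, −5.32 ± 0.58; 2 of 4 without the term), as did 1 of 4 B cell genes (Cd79b, −2.60 ± 0.90) and 5 of 6 NKT and T cell genes. In the fit without the term 1 of those 6 rose and 3 fell. The 1 erythroid gene tested, Hba-a1, rose (4.11 ± 1.39), and its difference without the term was 2.43 ± 1.18 (adjusted p = 0.0834). From stage 2 to stage 3, 10.9% of all genes rose and 18.6% fell (3.91% and 8.61% without the term). Of 4 tested myeloid and dendritic genes 1 rose (Fcer1g, 4.35 ± 0.32) and 0 fell, with or without the term. Of 5 tested regulatory T cell genes 0 rose and 1 fell (Nrp1, −1.91 ± 0.18), likewise in both fits. The medians of these lists with the term were 0.08 and −0.28. With the term 2 NKT and T cell genes rose and 2 fell, without it 0 of the 6 passed, and 0 B cell, erythroid or stroma genes passed in either fit.

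**Figure D1:**
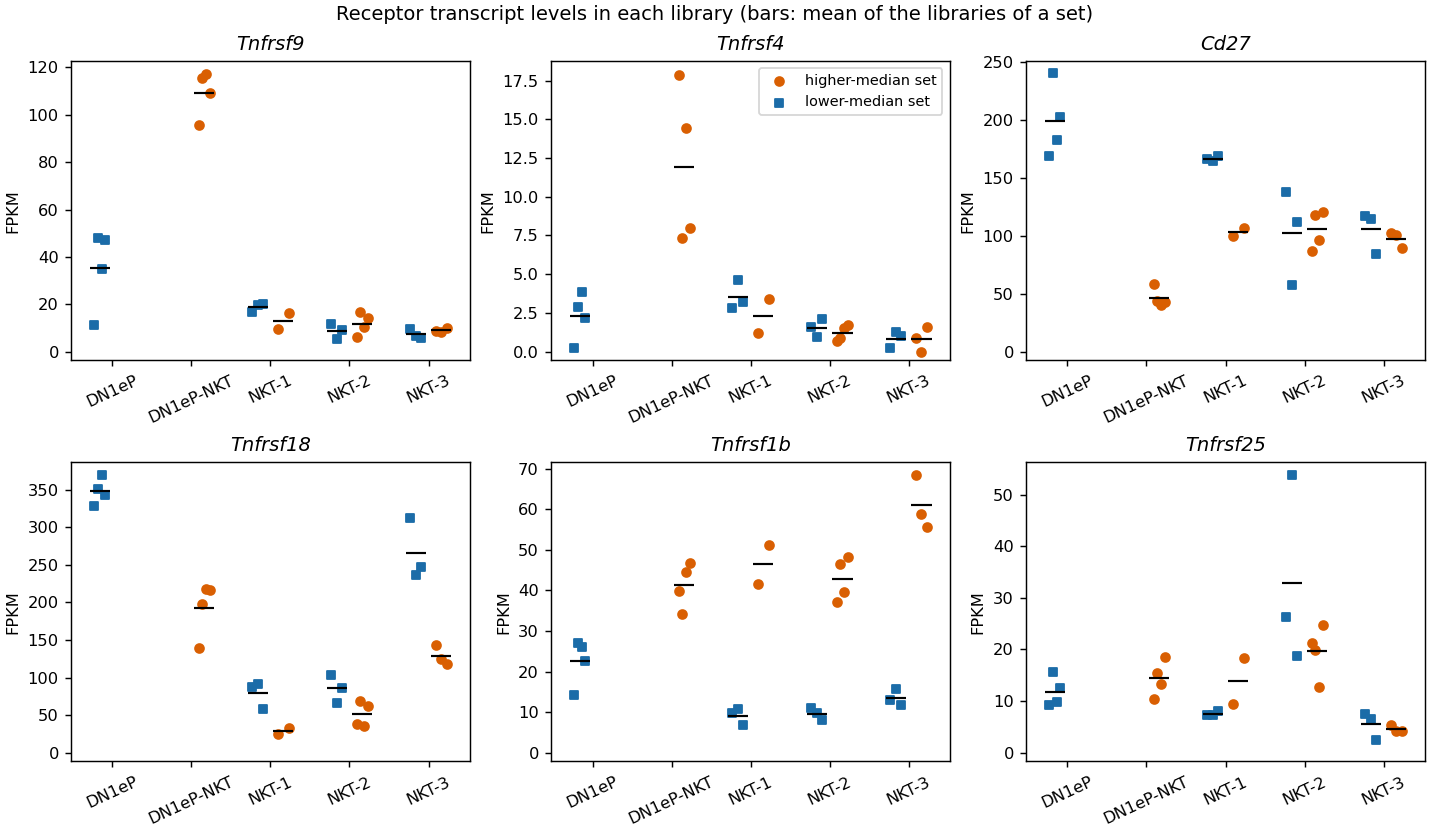
Transcript levels in FPKM (vertical axis, linear, separate scale in each panel) of the 6 receptors in every library, by group; circles are higher-median libraries, squares lower-median libraries, and bars the mean of the libraries of a set. Tnfrsf9 in the 4 DN1eP-NKT libraries sits between 95.6 and 117 FPKM, above every other library, and Tnfrsf1b separates by library set within each thymic stage.

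The cultured NKT cells carried far more Tnfrsf9 and Tnfrsf4 than the precursors they were grown from and than every thymic stage, and less Cd27. Tnfrsf9 averaged 109 ± 9.82 FPKM (SD, n = 4) in DN1eP-NKT against 35.3 ± 17.1 (n = 4) in DN1eP, and Tnfrsf4 11.9 ± 5.11 against 2.27 ± 1.54. Cd27 averaged 46.1 ± 8.10 FPKM in DN1eP-NKT against 199 ± 31.2 in DN1eP. With library set as a term, 2 of the 6 receptors were higher in DN1eP-NKT than in DN1eP and 2 lower, where 15.1% of all genes tested were higher and 17% lower. Without the term 2 were higher and 1 lower (36.2% and 16.4%), and the median of all genes moved from −0.05 with the term to 0.50 without it. In these bulk libraries fewer cells with a transcript and less of it per cell cannot be told apart. Nor can the culture be told apart from the library set by these 2 groups alone, since the set term for this comparison comes from the 18 thymic libraries.

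Tnfrsf9 encodes 4-1BB, a receptor that sustains activated T cells when it binds its ligand 4-1BBL. Its DN1eP-NKT values were 95.6, 116, 117 and 109 FPKM in libraries 1 to 4. In DN1eP they were 11.2, 48.1, 35.0 and 47.0, so the groups did not overlap and DN1eP library 1 was the lowest. The difference was 1.69 ± 0.41 (SE, adjusted p = 0.00274) with the set term and 1.79 ± 0.36 without it. Leaving out DN1eP library 1 gave 1.23 ± 0.34 (adjusted p = 0.00498). Thymic NKT cells had lower levels, 9.41, 16.2, 16.6, 19.8 and 20.04 FPKM in NKT-1, 5.29 to 16.8 (median 10.2) in NKT-2 and 5.92 to 10.1 (median 8.54) in NKT-3. The highest of them was thus far below the lowest cultured library, and the differences were 2.65 ± 0.35, 3.31 ± 0.32 and 3.56 ± 0.33 against stages 1, 2 and 3 (adjusted p = 1.66e-06, 6.64e-09 and 3.34e-09). Within the higher-median libraries alone they were 3.04 ± 0.30, 3.19 ± 0.24 and 3.46 ± 0.26.

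Tnfrsf4 encodes OX40, which prolongs the survival of activated T cells. It was listed at 17.9, 7.33, 14.5 and 7.99 FPKM in DN1eP-NKT libraries 1 to 4 and at 0.205, 2.87, 3.85 and 2.16 in DN1eP. Every cultured value was thus above every precursor value, although the shallow libraries measured it poorly: the deposited interval of the highest DN1eP value ran from 0.792 to 6.34 FPKM. The intervals of DN1eP-NKT libraries 2 (3.81 to 10.79 FPKM) and 4 (3.29 to 12.5 FPKM) overlapped it. The difference was 2.32 ± 0.44 (adjusted p = 0.000225) with the set term, 2.06 ± 0.39 without it and 1.89 ± 0.39 (adjusted p = 0.000411) without DN1eP library 1. Against the thymic stages, where the highest library had 4.62 FPKM, it was 1.81 ± 0.38, 2.51 ± 0.34 and 2.93 ± 0.35 higher (adjusted p = 0.000587, 1.62e-06 and 1.99e-07). The higher-median libraries alone gave 1.98 ± 0.42, 2.49 ± 0.35 and 2.85 ± 0.37.

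Stromal and regulatory T cell transcripts also differed in the cultured libraries. The 9 stroma markers other than Thy1 summed to 73.3, 257, 383 and 380 FPKM in DN1eP-NKT libraries 1 to 4, against 0.575 to 30.0 in DN1eP and at most 2.34 in a thymic library. Cxcl12, a chemokine of stromal cells, was at 53.5 to 191 FPKM in DN1eP-NKT and at most 0.307 elsewhere, and Fn1, which encodes fibronectin, at 6.86 to 63.6 and at most 0.697. Of the 7 stroma markers tested, 6 entered the test only through the DN1eP-NKT libraries in which they are high, so no count of them is given, and Thy1, which T cells also express, did not pass with the set term (0.56 ± 0.49, adjusted p = 0.409) and passed without it (3.8 ± 1.06, adjusted p = 0.00588). Dcn went the other way, at 0.575 to 25.2 FPKM in DN1eP and at most 0.231 in DN1eP-NKT, and Lum was at 0 in every DN1eP-NKT library. Foxp3, which defines regulatory T cells, was at 3.06, 0.631, 0.464 and 0.436 FPKM in DN1eP-NKT and at most 0.147 in any other library. The 7 regulatory T cell markers other than Il2ra summed to 9.70 to 20.4 FPKM in DN1eP-NKT and 11.5 to 47.7 in DN1eP, and of the 8 with Il2ra 5 were tested, 2 rising and 2 falling (of all genes 15.1% and 17%). Ikzf4, 1 of those rising, entered the test only through the cultured libraries. Il2ra, the alpha chain of the IL-2 receptor, was at 92.7 to 113 FPKM in DN1eP-NKT and 6.91 to 14.4 in DN1eP, which were sorted as negative for its protein, CD25. Tnfrsf9 was lowest and Tnfrsf4 highest in library 1, the library with the least stroma and the most Foxp3. Library 1 was also the deepest of the group (16.6 M fragments against 1.33 to 2.86 M). Its deposited Tnfrsf9 interval (90.95 to 100.5 FPKM) overlapped that of library 4 (94.84 to 123.6). The parts of stromal cells, regulatory T cells and depth in the receptor levels were not tested.

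Cd27 encodes the receptor for CD70 and is a marker of the DN1eP gate, so its high level in DN1eP goes with the sort and is not an independent result. It was at 169, 241, 183 and 203 FPKM in DN1eP libraries 1 to 4 and at 58.1, 43.4, 40.4 and 42.5 in DN1eP-NKT. The groups lay far apart, and the difference was −1.91 ± 0.26 (adjusted p = 2.88e-06), or −2.09 ± 0.24 without the set term. The comparison with thymic NKT cells, which were not gated on CD27, does not share that limit. Thymic libraries ranged from 57.6 to 169 FPKM, and only the lowest of them, NKT-2 library 6, reached down to the cultured range. Cd27 was lower in DN1eP-NKT than in stages 1, 2 and 3, with differences of −1.47 ± 0.22, −1.05 ± 0.20 and −1.04 ± 0.21 (adjusted p = 1.01e-05, 0.000216 and 0.000363). E130112N10Rik, which shares its locus, differed by −1.16 ± 0.48 between DN1eP-NKT and DN1eP (adjusted p = 0.0632) and by −0.63 to 0.04 between DN1eP-NKT and the stages.

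Tnfrsf18 encodes GITR. The precursor and cultured libraries did not overlap in FPKM, with 329, 350, 369 and 343 in DN1eP and 139, 197, 218 and 216 in DN1eP-NKT. This gap did not pass the test either way: it was −0.87 ± 0.39 (adjusted p = 0.0603) without the set term and turned to 0.15 ± 0.26 (adjusted p = 0.685) with it. Quantile normalisation with the set term gave 0.57 ± 0.22 (adjusted p = 0.0477). Against thymic cells the cultured cells had more Tnfrsf18 than stage 1 (2.45 ± 0.22, adjusted p = 1.23e-09) and stage 2 (2.03 ± 0.20, adjusted p = 6.58e-09). The higher-median libraries alone gave 2.67 ± 0.27 and 1.92 ± 0.22 for these. Against stage 3 the difference of 0.56 ± 0.21 lay at the threshold (adjusted p = 0.0497). Leaving out 1 of 19 of the 26 libraries moved it past the threshold (adjusted p up to 0.138), and within the higher-median libraries it was 0.56 ± 0.24 (adjusted p = 0.0892). Without the set term it was 0.04 ± 0.35 (adjusted p = 0.938).

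Tnfrsf1b encodes TNFR2, a receptor for TNF and lymphotoxin alpha. Its FPKM were higher in every DN1eP-NKT library (39.8, 34.2, 44.6 and 46.7) than in every DN1eP library (14.3, 27.0, 26.1 and 22.7). The direction of the difference turned with the library set: it was 0.88 ± 0.67 (adjusted p = 0.269) without the term and −1.24 ± 0.22 (adjusted p = 0.000103) with it. In the thymic stages the higher-median libraries had 4.45 to 5.11 times the mean Tnfrsf1b of the lower-median ones, so the effect of culture on this receptor and that of the library set cannot be told apart. Within the higher-median libraries DN1eP-NKT differed from stages 1 and 2 by −0.17 ± 0.18 and −0.05 ± 0.15, and neither difference passed the test. Stage 3 had more than the cultured cells, the difference being −0.55 ± 0.16 (adjusted p = 0.0158) within that set. With all libraries the value was −0.56 ± 0.18 (adjusted p = 0.0194), or 0.50 ± 0.61 with no set term. It lost the threshold without DN1eP-NKT library 2 (−0.48, adjusted p = 0.0812) or NKT-3 library 1 (−0.52, adjusted p = 0.0537).

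Tnfrsf25 encodes DR3, the receptor for TL1A. In DN1eP its values were 9.26, 15.6, 9.81 and 12.5 FPKM, overlapping those of DN1eP-NKT (10.4, 15.5, 13.3 and 18.5). The difference of 0.35 ± 0.39 did not pass the test (adjusted p = 0.525). Against stage 3, DN1eP-NKT had more Tnfrsf25 (1.41 ± 0.32, adjusted p = 0.00115). The differences from stage 1 (0.58 ± 0.34, adjusted p = 0.240) and stage 2 (−0.64 ± 0.30, adjusted p = 0.150) did not pass, and leaving out NKT-1 library 2 brought the first to 0.94 (adjusted p = 0.0476).

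Counted over the 6 receptors, DN1eP-NKT had 3 higher and 1 lower than stage 1 (10.2% and 11.5% of all genes tested) and 3 higher and 1 lower than stage 2 (12.2% and 8.45%). Against stage 3 the count was 4 higher and 2 lower (17.6% and 8.55% of all genes). The median difference of the 6 was 1.2, 0.97 and 0.98 on the log2 scale against stages 1, 2 and 3, beside medians of −0.10, 0.02 and 0.09 over all genes tested. Within the higher-median libraries alone the counts were 3 higher and 1 lower (10.4% and 9.24% of all genes), 3 and 1 (13.8% and 10.5%), and 3 and 2 (18.3% and 11.4%). The comparisons share the DN1eP-NKT libraries.

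**Figure D2:**
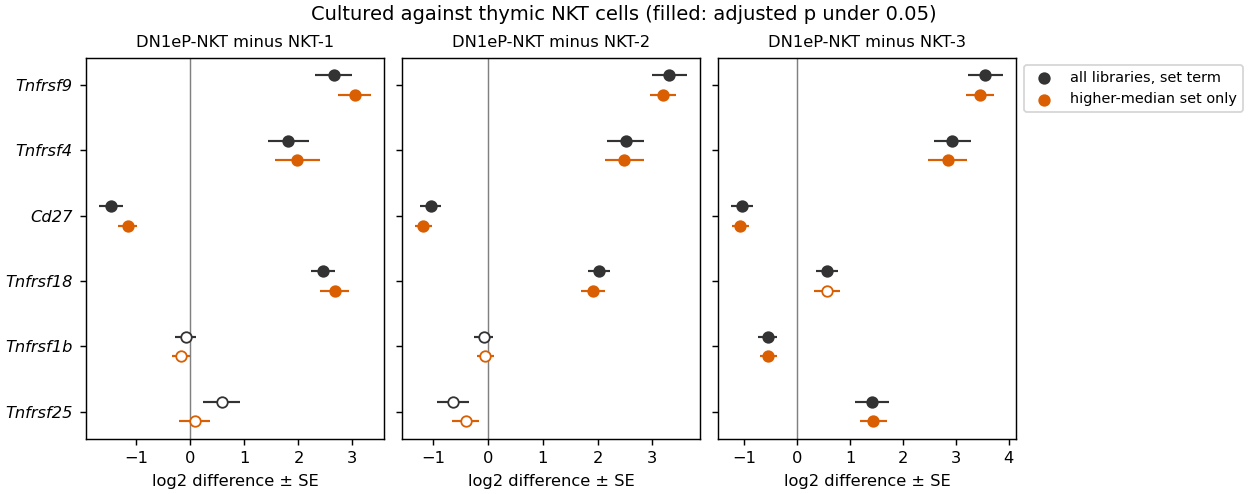
Log2 differences (± SE) of DN1eP-NKT minus each thymic stage for the 6 receptors, from all 26 libraries with library set as a term (dark) and from the higher-median libraries alone (orange); filled points have an adjusted p under 0.05. Tnfrsf9 and Tnfrsf4 are filled and right of 0 in all panels and Cd27 is filled and left of 0, while Tnfrsf18 shrinks from 2.45 against stage 1 to 0.56 against stage 3.

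**Figure D3:**
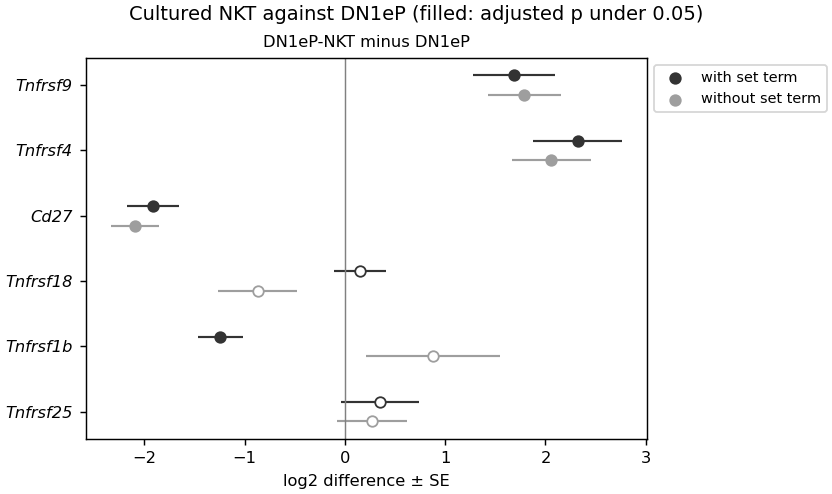
Log2 differences (± SE) of DN1eP-NKT minus DN1eP for the 6 receptors, with library set as a term (dark) and without it (grey); filled points have an adjusted p under 0.05. Tnfrsf9, Tnfrsf4 and Cd27 keep their side in both fits, whereas Tnfrsf1b moves from 0.88 without the term to −1.24 with it and Tnfrsf18 from −0.87 to 0.15.

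Among the thymic stages, stage 3 had more Tnfrsf18 and less Tnfrsf25 than stage 2, and a smaller rise of Tnfrsf1b. In this comparison 2 of the 6 receptors were higher at stage 3 and 1 lower, beside 10.9% and 18.6% of all genes tested. From stage 1 to stage 3, 2 rose (10.4% of all genes) and 3 fell (27.4%). Between stages 1 and 2 only Tnfrsf25 differed, 1 of the 6, where 0.506% of all genes were higher and 0.292% lower. For stage 3 against stage 2, the higher-median libraries alone called 2 higher and 1 lower (11.6% and 16.4% of all genes), the lower-median ones 1 and 1 (2.37% and 4.75%), and the fit without the set term 1 and 1 (3.91% and 8.61%). For stage 3 against stage 1, each set alone called 1 higher and 1 lower, beside 10.3% and 17.7% of all genes in the higher set and 3.76% and 14.7% in the lower. For stage 2 against stage 1, neither set called any receptor, beside 0.163% and 0.06% in the higher set and 0.0857% and 0.0429% in the lower.

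Of the 6, Tnfrsf18 had the largest rise from stage 2 to stage 3. In the higher-median libraries it was at 143, 124 and 119 FPKM in NKT-3, against 35.1 to 69.4 (n = 4) in NKT-2 and 25.3 and 33.1 in NKT-1. The lower-median libraries gave 312, 237 and 248 in NKT-3, 103, 66.8 and 86.6 in NKT-2 and 87.7, 91.3 and 57.8 in NKT-1. Stage 3 was thus above the other stages in each set with no overlap, though the sets differ in level. The rise from stage 2 to stage 3 was 1.48 ± 0.17 (adjusted p = 9.23e-08) over all libraries, 1.36 ± 0.24 within the higher-median set and 1.63 ± 0.22 within the lower-median set. From stage 1 to stage 3 it was 1.90 ± 0.18 (adjusted p = 3.67e-09), and within the sets 2.11 ± 0.28 and 1.75 ± 0.22. Without the pair of libraries that held B cell and erythroid transcripts, these rises were 1.42 ± 0.18 and 1.95 ± 0.19. Stages 1 and 2 differed by 0.42 ± 0.18, which did not pass (adjusted p = 0.382).

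Tnfrsf1b rose by 0.48 ± 0.14 from stage 2 to stage 3 (adjusted p = 0.0127) and by 0.47 ± 0.16 from stage 1 (adjusted p = 0.0182). In the higher-median libraries it was at 68.5, 58.8 and 55.6 FPKM in NKT-3, 37.1 to 48.2 in NKT-2 and 41.7 and 51.1 in NKT-1. In the lower-median libraries it was at 13.05, 15.7 and 11.7 in NKT-3, 11.01, 9.78 and 8.12 in NKT-2 and 9.68, 10.7 and 6.84 in NKT-1. Stage 3 lay above the other stages in each set, yet only by a small step beside the gap between sets. The rise from stage 2 was 0.50 ± 0.16 (adjusted p = 0.0280) within the higher set and 0.44 ± 0.27 (adjusted p = 0.428) within the lower set. Without the set term the rises from stages 2 and 1 were 0.33 ± 0.53 and 0.69 ± 0.57 (adjusted p = 0.849 and 0.511). The rise from stage 1 did not pass within either set (0.39 ± 0.19 and 0.54 ± 0.27, adjusted p = 0.144 and 0.195). It was also lost without NKT-1 library 5 (0.38, adjusted p = 0.0676), and without the pair of libraries with B cell and erythroid transcripts (0.42 ± 0.17, adjusted p = 0.0536).

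Tnfrsf25 was highest at stage 2. NKT-2 ranged from 12.7 to 53.7 FPKM (median 21.3, n = 7), NKT-1 was at 9.45, 18.4, 7.28, 7.30 and 8.10, and NKT-3 ranged from 2.47 to 7.53 (median 4.83, n = 6). No NKT-3 library reached the lowest NKT-2 library, whereas NKT-1 library 2 fell within the NKT-2 range. The fall from stage 2 to stage 3 was −2.06 ± 0.26 (adjusted p = 4.26e-07), with −1.85 ± 0.26 and −2.34 ± 0.38 within the higher and lower sets. NKT-2 library 6, with 53.7 FPKM and the most B cell transcripts, is one of the pair with B cell and erythroid transcripts, without which the value was −1.92 ± 0.24 (adjusted p = 6.02e-07). The deposited interval of that library, 45.2 to 51.0 FPKM, does not hold its own value. The same is true of NKT-2 library 5, with 26.21 FPKM and an interval of 21.54 to 26.18. The rise from stage 1 to stage 2 was 1.22 ± 0.27 (adjusted p = 0.0243), but 1.85 ± 0.38 in the lower and 0.50 ± 0.29 in the higher set, with adjusted p = 0.0939 and 0.900. It was lost without any of NKT-1 libraries 1, 3, 4 and 5 (values 1.23, 1.13, 1.13 and 1.16, adjusted p = 0.0592, 0.0825, 0.0785 and 0.0684). The same held without NKT-2 library 5 (1.19, adjusted p = 0.0567) or library 6 (0.98, adjusted p = 0.0725), and without the pair (0.96 ± 0.24, adjusted p = 0.0842). From stage 1 to stage 3 Tnfrsf25 fell by 0.84 ± 0.28 (adjusted p = 0.0191), a call lost without NKT-1 library 2 (−0.56, adjusted p = 0.120) or NKT-3 library 6 (−0.66, adjusted p = 0.0689). Within the higher set it was −1.35 ± 0.31 (adjusted p = 0.00403) and within the lower set −0.49 ± 0.38 (adjusted p = 0.439). Without the set term the differences of stages 2 and 3 from stage 1 were 1.2 ± 0.29 and −0.85 ± 0.30 (adjusted p = 0.115 and 0.0516).

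Tnfrsf4 and Tnfrsf9, the members that rose in culture, fell from stage 1 to stage 3. Tnfrsf4 was at 1.18, 3.39, 2.79, 4.62 and 3.18 FPKM in NKT-1, 0.702 to 2.14 (median 1.52) in NKT-2 and 0 to 1.58 (median 0.956) in NKT-3, where it was listed at 0 in library 2. NKT-1 and NKT-3 overlapped through NKT-1 library 1, and the difference between them was −1.12 ± 0.31 (adjusted p = 0.00556). Tnfrsf9 likewise fell from stage 1 to stage 3 (−0.91 ± 0.29, adjusted p = 0.0160), with ranges that overlapped in NKT-1 library 1. Within the lower set the falls were −1.32 ± 0.44 and −1.27 ± 0.43 (adjusted p = 0.0488 and 0.0537). Within the higher set they were −0.87 ± 0.45 and −0.41 ± 0.32, which did not pass (adjusted p = 0.167 and 0.367). From stage 2 to stage 3 neither passed, with −0.42 ± 0.29 and −0.25 ± 0.27 (adjusted p = 0.292 and 0.536).

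Cd27 was at 99.5, 107, 167, 165 and 169 FPKM in NKT-1, 57.6 to 138 (median 112) in NKT-2 and 84.8 to 117 (median 102) in NKT-3. The range of stage 3 lay within that of stage 2, and they differed by −0.01 ± 0.17 (adjusted p = 0.963). The difference of stage 3 from stage 1, −0.43 ± 0.19, did not pass (adjusted p = 0.0709). It passed without NKT-1 library 1 (−0.53, adjusted p = 0.0356), without NKT-2 library 6 (−0.41, adjusted p = 0.0253) and without the pair (−0.42 ± 0.16, adjusted p = 0.0369). The higher-median libraries of NKT-1, at 99.5 and 107 FPKM, lay within the range of stage 3, and the lower-median ones above it.

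**Figure D4:**
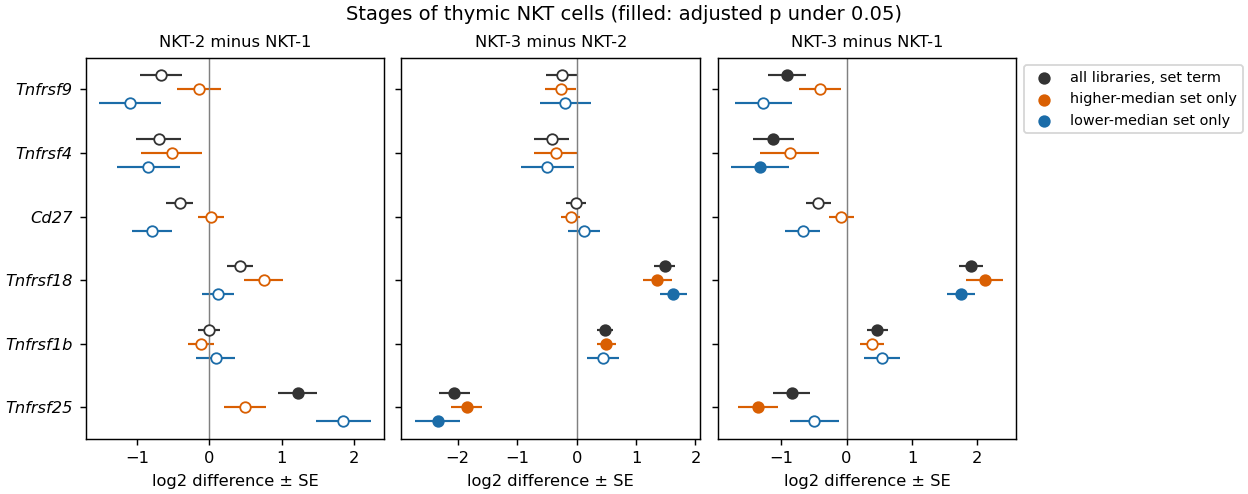
Log2 differences (± SE) between thymic NKT stages for the 6 receptors, from all libraries with library set as a term (dark), from the higher-median libraries (orange) and from the lower-median libraries (blue); filled points have an adjusted p under 0.05. In the middle panel Tnfrsf18 lies right of 0 (1.48) and Tnfrsf25 left of 0 (−2.06), filled in all 3 fits.

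DN1eP could be compared with the thymic stages within the lower-median set, which avoids the set term but not differences in depth. DN1eP libraries 2 to 4 had 1.17 to 2.05 M fragments, DN1eP library 1 had 20.9 M and the thymic libraries of this set 20.7 to 30.0 M. The part of depth in the differences was not tested. Within this set Tnfrsf18 in DN1eP exceeded that of stages 1 and 2, which differed from it by −2.15 ± 0.21 and −2.03 ± 0.21 (adjusted p = 6.11e-06 and 1.53e-05). Stage 3 differed from DN1eP by −0.40 ± 0.21 and did not pass (adjusted p = 0.231), though its 3 lower-median libraries (237 to 312 FPKM) lay below the 4 of DN1eP (329 to 369). Tnfrsf9 was lower in stages 2 and 3 than in DN1eP (−1.78 ± 0.41 and −1.97 ± 0.41, adjusted p = 0.00701 and 0.0110). Its difference in stage 1, −0.69 ± 0.41, did not pass (adjusted p = 0.224). Tnfrsf1b was lower in stages 1 and 2 (−1.21 ± 0.25 and −1.12 ± 0.25, adjusted p = 0.00299 and 0.00651) and differed by −0.67 ± 0.25 in stage 3 (adjusted p = 0.0926). Tnfrsf25 was higher in stage 2 than in DN1eP (1.30 ± 0.36, adjusted p = 0.0184), a value that rests on 3 NKT-2 libraries, among them library 6 with 53.7 FPKM. In all, 0 receptors were higher and 2 lower in stage 1 than in DN1eP (15.1% and 11.9% of all genes tested), 1 and 4 in stage 2 (8.09% and 13.5%), and 0 and 2 in stage 3 (2.28% and 11%), Cd27, a gate marker of DN1eP, being among the lower ones in stages 2 and 3.

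Over all libraries with the set term, 0 receptors were higher and 3 lower in stage 1 than in DN1eP (20.7% and 18.9% of all genes tested). For stage 2 the count was 1 higher and 4 lower (15% and 21.3%), and for stage 3 it was 0 higher and 4 lower (5.79% and 17%). The call of Tnfrsf9 in stage 1 (−0.96 ± 0.34, adjusted p = 0.0259) was lost without DN1eP library 2, 3 or 4 or NKT-1 library 1 (−0.75, −0.90, −0.76 and −0.80, adjusted p = 0.105, 0.0640, 0.0991 and 0.0577), and without the set term (−0.92 ± 0.35, adjusted p = 0.0564). The rise of Tnfrsf25 in stage 2 (0.99 ± 0.32) was lost without NKT-2 library 6 (0.68, adjusted p = 0.0678) and without the pair (0.63 ± 0.29, adjusted p = 0.0897). Its fall in stage 3 (−1.07 ± 0.32) was lost without DN1eP library 2 (−0.93, adjusted p = 0.0632) or NKT-3 library 6 (−0.84, adjusted p = 0.0702). Tnfrsf4 in stage 3 (−0.62 ± 0.35, adjusted p = 0.221) passed without DN1eP library 1 (−1.04, adjusted p = 0.0164).

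With the set term taken into account, each receptor had its own order of groups. For Tnfrsf4 it was DN1eP-NKT, NKT-1, DN1eP, NKT-2 and NKT-3, and only the first step passed the test between neighbours. Tnfrsf9 ran from DN1eP-NKT through DN1eP to NKT-1, NKT-2 and NKT-3, and the first and the second steps passed. Tnfrsf18 was ordered DN1eP-NKT, DN1eP, NKT-3, NKT-2 and NKT-1, with a passing step only between NKT-3 and NKT-2. For this receptor the order of DN1eP-NKT and DN1eP turned with the set term (difference 0.15 with it and −0.87 without). For Tnfrsf1b the order was DN1eP, NKT-3, NKT-1, NKT-2 and DN1eP-NKT, and the first and the second steps passed. The places of DN1eP and DN1eP-NKT depended on the set term: without it NKT-3 minus DN1eP was 0.38 ± 0.61 (adjusted p = 0.669). That step also missed the threshold in the lower set alone, with quantile normalisation and with the replicate block (adjusted p = 0.0926, 0.102 and 0.0883). Tnfrsf25 was ordered NKT-2, DN1eP-NKT, DN1eP, NKT-1 and NKT-3, and Cd27 DN1eP, NKT-1, NKT-2, NKT-3 and DN1eP-NKT, and for each of them only the last step passed. A step that missed the threshold does not show that the neighbours were alike.

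FPKM are per length, so the 6 levels can be set side by side within a library, but the library set shifts them unequally: Tnfrsf1b made up 22.3% of the sum in the higher-median and 2.58% to 3.58% in the lower-median libraries of NKT-1. Shares and ratios therefore move with the set, and between DN1eP and DN1eP-NKT the set and the group cannot be told apart. The 6 receptors summed to 533 to 685 FPKM in DN1eP, 361 to 448 in DN1eP-NKT, 187 to 298 in NKT-1, 191 to 292 in NKT-2 and 280 to 460 in NKT-3. Tnfrsf18 was the most abundant of the 6 in 4 of 4 DN1eP, 4 of 4 DN1eP-NKT and 6 of 6 NKT-3 libraries, and Cd27 in 5 of 5 NKT-1 and 6 of 7 NKT-2 libraries. The exception was NKT-2 library 6. In the higher-median libraries the ratio of Tnfrsf18 to Cd27 was 0.254 to 0.309 in NKT-1, 0.363 to 0.586 in NKT-2, 1.23 to 1.40 in NKT-3 and 2.40 to 5.39 in DN1eP-NKT. In the lower-median libraries it was 0.342 to 0.555 in NKT-1, 0.747 to 1.16 in NKT-2, 2.06 to 2.92 in NKT-3 and 1.45 to 2.02 in DN1eP. Tnfrsf9 made up 24.8% to 28.0% of the sum in DN1eP-NKT and at most 7.56% in a library of another group. It exceeded Cd27 in 4 of 4 DN1eP-NKT libraries and in 0 of the 22 others. Tnfrsf4 made up 1.77% to 4.95% in DN1eP-NKT and at most 1.55% in a library of another group.

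**Figure D5:**
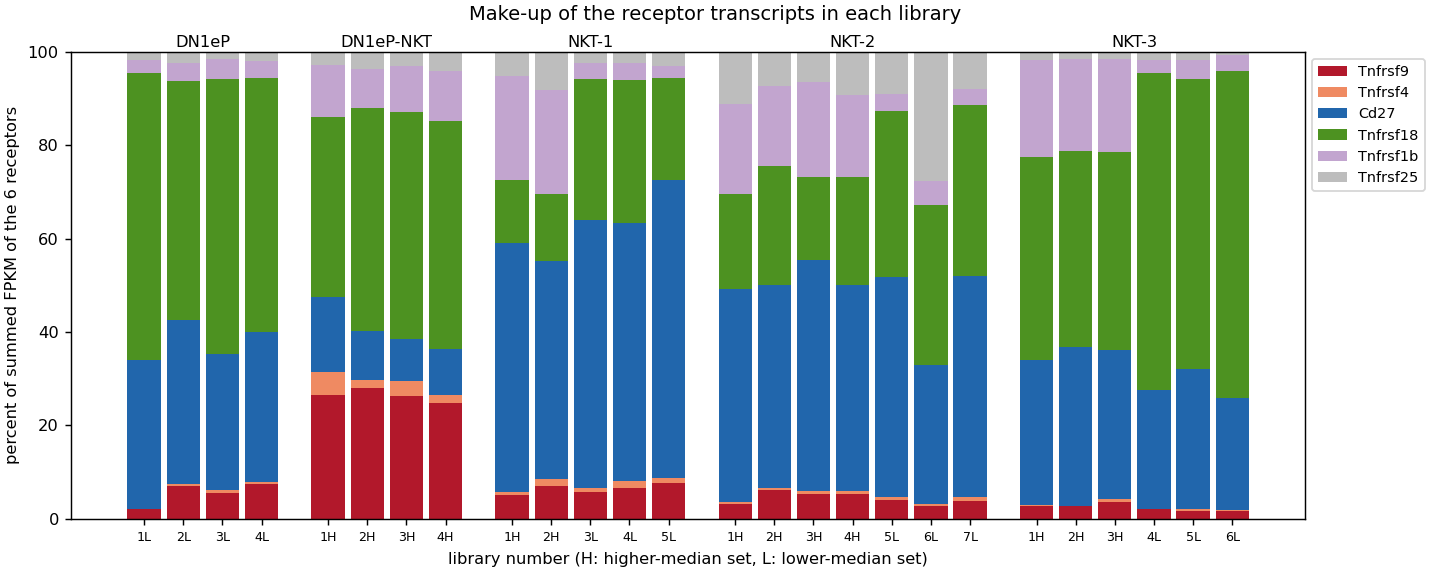
Share of each receptor in the summed FPKM of the 6 (vertical axis, percent) in every library, grouped by cell group; bars are libraries, numbered with H for the higher-median and L for the lower-median set. The Tnfrsf9 share is 24.8% to 28.0% in DN1eP-NKT, Tnfrsf18 is the largest share in DN1eP, DN1eP-NKT and NKT-3, and Cd27 is largest in all NKT-1 libraries.

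The receptors did not vary as a block across the 26 libraries. After the set term was subtracted, Pearson's r was 0.85 between Tnfrsf4 and Tnfrsf9, 0.54 between Tnfrsf9 and Tnfrsf18, 0.55 between Tnfrsf1b and Cd27 and −0.46 between Tnfrsf4 and Cd27, as a description over libraries that share groups and depth. DN1eP and DN1eP-NKT do not share a library set, so r, here and for the likenesses below, depends on a term taken from thymic libraries. The term was largest for Tnfrsf1b (2.12). Unsubtracted, Tnfrsf1b was higher in every DN1eP-NKT library (34.2 to 46.7 FPKM) than in DN1eP (14.3 to 27.0), while Cd27 was lower. Values of r without the subtraction were not computed. Tnfrsf4 and Tnfrsf18, neighbours on chromosome 4, had r = 0.24. Among 7761 genes that averaged at least 5 FPKM, those most like Tnfrsf4 were Aaas (0.87), Tnfrsf9 (0.85) and Lif (0.85). Larp1 (0.92), Spp1 (0.91), which encodes osteopontin, and the cell cycle inhibitor Cdkn1a (0.88) came closest to Tnfrsf9. The patterns most like that of Tnfrsf18 were those of the class I histocompatibility gene H2-K1 (0.95), the death ligand gene Fasl (0.94) and the NK receptor gene Klrc1 (0.94). For Tnfrsf1b they were Mtmr3 (0.94), Tgfbr2 (0.94) and the NF-kB subunit gene Relb (0.93). Cd27 was matched by Zyg11b (0.90), Tes (0.90) and Ikzf2 (0.89). Tnfrsf25 had the weakest likenesses, with Nr1d1 (0.78), Avpi1 (0.77) and Fam20a (0.75).

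Of the 7 ligand genes of these receptors, 4 were expressed highly enough to be tested. Lta, which encodes lymphotoxin alpha, a ligand of TNFR2, was at 38.6, 46.3, 39.8 and 42.6 FPKM in DN1eP-NKT and 17.3, 12.4, 14.0 and 10.9 in DN1eP. It rose by 1.93 ± 0.33 (adjusted p = 5.84e-05) and was the ligand with the highest level in every cultured library. Tnf, the other ligand of TNFR2, rose by 1.42 ± 0.49 (adjusted p = 0.0267), from 5.15 to 6.61 FPKM in DN1eP to 18.2 to 35.5 in DN1eP-NKT, the highest in library 4. These were 2 of 4 ligands tested, beside 15.1% of all genes rising, with a median difference of 1.16 beside −0.05 over all genes. In the fit without the set term 3 of 4 rose, beside 36.2%. Tnfsf4, the ligand of OX40, was at 5.47, 3.91, 4.03 and 4.33 FPKM in DN1eP-NKT and differed by 0.90 ± 0.44 from DN1eP (adjusted p = 0.120, or 0.0415 without the set term). It was higher there than in stage 2 (1.86 ± 0.34, adjusted p = 0.000139) and stage 3 (2.36 ± 0.36, adjusted p = 7.83e-06), and in NKT-3 it was listed at 0 in 5 of 6 libraries. Tnfsf9, the ligand of 4-1BB, was at 2.50 to 4.45 FPKM in DN1eP-NKT and 1.78 to 8.51 in DN1eP. Its difference turned with the set term, 0.50 ± 0.42 with it and −0.50 ± 0.48 without (adjusted p = 0.383 and 0.388). From stage 2 to stage 3 Lta fell by 0.69 ± 0.21 (adjusted p = 0.0148), 1 of 4 tested, where 18.6% of all genes fell. The difference without the set term was −0.67 ± 0.25 (adjusted p = 0.0875), and 0 of 4 passed. Tnfsf15, the ligand of DR3, stayed at or below 1.05 FPKM in all libraries. Cd70 was listed at 0 in all libraries but DN1eP-NKT library 1 (0.0966 FPKM) and NKT-2 library 6 (0.695). Tnfsf18, the ligand of GITR, was listed at 0 in all but 2 NKT-3 libraries (0.449 and 0.0795).

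Of 22 other receptors of the family, 15 were tested, and from DN1eP to DN1eP-NKT 3 rose and 1 fell, beside 15.1% and 17% of all genes. With no set term 6 rose and 1 fell, beside 36.2% and 16.4%. The 15 tested include 2 that reached the minimum level only with the cultured libraries, so neither count of risers is support. With the term Tnfrsf23 rose (1.24 ± 0.30, adjusted p = 0.00255). The others called higher, Tnfrsf8, which encodes CD30, and Ltbr, the lymphotoxin beta receptor known from stromal cells, entered the test only with the help of the cultured libraries, so their calls are no support. Tnfrsf8 was at 1.66 FPKM or more in each DN1eP-NKT library (median 3.02, n = 4) and at most 0.749 elsewhere. Ngfr fell (−1.33 ± 0.43, adjusted p = 0.0175), and its difference without the term was −0.74 ± 0.40 (adjusted p = 0.116). From stage 2 to stage 3, Tnfrsf1a (0.78 ± 0.18), which encodes the other TNF receptor, and Relt (0.65 ± 0.22) rose, and Tnfrsf13b (−1.94 ± 0.37) and Tnfrsf21 (−0.72 ± 0.23) fell, 2 and 2 of 15 beside 10.9% and 18.6% of all genes. The fit without the set term called 0 higher and 1 lower, Tnfrsf13b (adjusted p = 0.000805), beside 3.91% and 8.61% of all genes, with −0.78 ± 0.32 for Tnfrsf21 (adjusted p = 0.124).

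Downstream of the receptors, the calls among adaptors and NF-kB genes changed with the library set term, as did those of all genes. Of the 13 TRAF and death domain adaptors tested, 1 rose and 5 fell in DN1eP-NKT against DN1eP, beside 15.1% and 17% of all genes. With no set term 5 rose and 4 fell, beside 36.2% and 16.4%. Traf2, Birc2 and Birc3, which form a complex at TNF receptor tails, fell in both fits (−1.06 ± 0.23, −1.63 ± 0.33 and −1.75 ± 0.30 with the term). Siva1, which encodes a protein known to bind the tail of CD27, rose by 1.63 ± 0.29, and without the term its difference was 0.61 (adjusted p = 0.201). Of the 18 NF-kB pathway genes, 2 rose and 6 fell with the term and 5 rose and 2 fell without it, beside the same shares of all genes. Tnfaip3, which encodes the NF-kB inhibitor A20, fell in both (−4.53 ± 1.05 with the term and −2.44 without), from 62.7 to 120 FPKM in DN1eP to 8.85 to 45.0. Relb (−2.27 ± 0.39) and Nfkbiz (−1.79 ± 0.60) fell with the term, and without it their differences were 0.25 (adjusted p = 0.814) and −0.92 (adjusted p = 0.170). Traf1, an adaptor of OX40 and 4-1BB among others, was higher in DN1eP-NKT than in stages 1, 2 and 3 by 1.72 ± 0.27, 1.39 ± 0.24 and 0.86 ± 0.25 (adjusted p = 1.44e-05, 6.66e-05 and 0.0114) and was chosen for mention after its values were seen. From stage 2 to stage 3, Siva1 fell by 1.28 ± 0.19 (adjusted p = 6.51e-06) and Tank fell by 0.54 ± 0.19 (adjusted p = 0.0365), and Ikbkb, a kinase that activates NF-kB, rose by 0.47 ± 0.14 (adjusted p = 0.0145). These were 0 of 13 adaptors rising and 2 falling, and 1 of 18 NF-kB genes rising and 0 falling, beside 10.9% and 18.6% of all genes. Among them, only the fall of Siva1 passed without the set term (−1.21 ± 0.32, adjusted p = 0.00972), with −0.53 ± 0.21 for Tank and 0.46 ± 0.16 for Ikbkb (adjusted p = 0.106 and 0.0602).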

How the data were processed

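Sorted thymocyte RNA was sequenced in 26 libraries. The deposited values are FPKM per gene, which the authors made with TopHat2 2.0.6 and Cufflinks 2.1.1 on mm9, per the submitters' processing notes. Rows with the same symbol were added up; 86 symbols not listed in every file and 13 whose estimate had failed in a library were dropped. Groups came from the sample titles and source names. Depth was read from the deposited confidence intervals, whose bounds lay 5.53% to 23.8% either side of genes at 20 to 100 FPKM.

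The 11663 genes with 4 or more libraries reaching 1 FPKM, all 6 receptors among them, were tested on log2(FPKM + 1), with a pseudocount of 1, in 1 limma fit over all libraries (limma 3.58.1, R 4.3.3, trend and robust empirical Bayes). It had a coefficient per group and a term for library set, with a limit of 11 on the median FPKM. Each of 10 comparisons had Benjamini-Hochberg adjustment over all genes, with a threshold of 0.05. The fit was tested on simulated data. Counts of receptors and of listed genes called are given beside the share of all genes called.

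The members, the gene lists, the library sets and the comparisons were chosen with earlier results of these data known. Lists and markers covered receptor ligands, other family receptors, adaptors, NF-kB genes, and regulatory T cell, B cell, erythroid, stroma, myeloid and NKT genes. Named from each list were up to 3 called genes with the largest differences at a mean of 5 FPKM or more for DN1eP-NKT minus DN1eP and NKT-3 minus NKT-2, and every ligand. The receptor, adaptor and NF-kB genes printed beyond these were chosen after their values were seen, and of the marker genes so named only a part is printed. For each receptor the 3 genes of highest correlation were named. Alternatives were upper-quartile and quantile scaling, no set term, each set alone, a replicate block, libraries left out, a smaller pseudocount (0.1), and a stricter (5 FPKM) or no minimum level.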

Additional observations from a re-analysis of the deposited data

Results flagged for a closer look

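Of the 30 sets of libraries formed by the 6 receptors and 5 groups, 3 held a library far from the others of its group. Chance alone gives about 1 in 20 where values share a single normal spread. These groups mix depths, and the thymic groups also library sets, so that rate may not apply. Cd27 in DN1eP-NKT library 1 (16.6 M fragments) was 58.1 FPKM, against 40.4 to 43.4 in the other libraries of that group (1.33 to 2.86 M). Tnfrsf25 in NKT-1 library 2 (1.31 M) was 18.4 FPKM, against 7.28 to 9.45 in the others (15.3 to 21.6 M). The part of depth in these values was not tested. Tnfrsf25 in NKT-2 library 6 was 53.7 FPKM, against 12.7 to 26.2 in the others, and this library also held the most B cell transcripts, 142 FPKM over 8 markers, whose part in the Tnfrsf25 value was not tested.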

How the results depend on the processing

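Of the 39 calls among 60 receptor comparisons, 22 kept their direction and their side of the threshold under every alternative run. In DN1eP-NKT minus DN1eP the 4 calls held under each of the 34 alternatives, except Tnfrsf1b without the set term. The number of receptors called for NKT-2 minus NKT-1, 1 in the main fit, was 0 with no filter, with no set term, in either library set alone, with the replicate block, and without the pair of libraries with B cell and erythroid transcripts. For NKT-3 minus NKT-1 it was 3 with no set term and 2 in either set alone, for NKT-1 minus DN1eP 1 with no set term, and for NKT-3 minus DN1eP 2 in the lower set alone. The single-set fits hold fewer libraries, and the cause of the other changes was not tested. Leaving out each library in turn gave 4 to 4 receptors called for DN1eP-NKT minus DN1eP, 4 to 5 against NKT-1, 4 to 4 against NKT-2 and 4 to 6 against NKT-3, 2 to 3, 4 to 5 and 3 to 5 for NKT-1, NKT-2 and NKT-3 minus DN1eP, 0 to 1 for NKT-2 minus NKT-1, 4 to 6 for NKT-3 minus NKT-1 and 3 to 3 for NKT-3 minus NKT-2.

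Directions turned as follows. Without the set term, Tnfrsf18 was −0.87 for DN1eP-NKT minus DN1eP, and Tnfrsf1b was 0.88, 1.18, 0.82 and 0.50 for DN1eP-NKT minus DN1eP, NKT-1, NKT-2 and NKT-3, 0.36 for NKT-2 minus NKT-1, and 0.05 and 0.38 for NKT-2 and NKT-3 minus DN1eP. The main value of Tnfrsf1b for NKT-2 minus NKT-1 was 0.00, and it was 0.00 with a pseudocount of 0.1, 0.09 with upper-quartile scaling, 0.06 with quantile normalisation, 0.09 in the lower set and 0.04 with the replicate block. Tnfrsf1b for DN1eP-NKT minus NKT-1 was 0.02 with upper-quartile scaling, and Tnfrsf4 for NKT-2 minus DN1eP 0.00 with a pseudocount of 0.1. Cd27 for NKT-3 minus NKT-2 was 0.08 with upper-quartile scaling, 0.14 with quantile normalisation and 0.12 in the lower set, and for NKT-2 minus NKT-1 0.02 in the higher set. With libraries left out, Tnfrsf1b ranged from −0.10 to 0.07 for NKT-2 minus NKT-1, from −0.15 to 0.00 for DN1eP-NKT minus NKT-2 and from −0.16 to 0.00 for DN1eP-NKT minus NKT-1, Cd27 from −0.19 to 0.05 for NKT-3 minus NKT-2, and Tnfrsf4 from −0.62 to 0.05 for NKT-2 minus DN1eP. None of these turned values passed the test.

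The labels do not say whether libraries of 1 number share a source, such as the pool of DN1eP from which a culture began. Pairing by number was not assumed: over 44 same-numbered pairs r was −0.379 to 0.494, with 13 over 0.1, and 7 of 25 libraries correlated best with their own number. With the number as a block, 3 receptors were called for NKT-2 minus DN1eP (5 in the main fit) and 1 for NKT-3 minus DN1eP (4). Depth limits Tnfrsf4, whose values in the shallow libraries have wide deposited intervals.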
